A study of Mus musculus with 24 samples.

Results

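The day 2 to day 3 step of differentiation towards extraembryonic endoderm (XEN) was examined in AGO2 knockout (KO) mouse embryonic stem cells, across all genes. The samples were chosen by genotype and day from their labels, without reference to any measured value, and they were 4 of the 24 samples of the series: 2 libraries of KO cells at day 2 and 2 at day 3. All cells were of the E14 line, of 129/Ola background. They had been kept with serum and 100 U/mL LIF, and were then plated for a 5 day protocol in RPMI medium with 15% FBS, 0.1 µM all-trans retinoic acid and 10 ng/mL Activin A, which every course library shares. For comparison, the same step was measured in 4 libraries of wild-type (WT) E14 cells at days 2 and 3, and the KO libraries of day 1 (2 libraries) and day 4 (2 libraries) gave the steps before and after. The sample titles of the KO course carry the tags KO1 and KO2; they do not say whether these are separate knockout clones or repeat cultures.

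AGO2 is one of the Argonaute proteins, which bind microRNAs and, through the bases of their seed, hold them against messenger RNAs whose translation and stability then fall. In the embryo, primitive endoderm is set apart from the pluripotent epiblast by GATA and SOX transcription factors, and it later gives visceral endoderm, a nutrient-absorbing epithelium, and parietal endoderm, a migratory cell that lays down basement membrane. Retinoic acid with Activin A is used to turn embryonic stem cells towards this lineage, and serum and retinoic acid can also raise mesenchymal and contractile genes in such cultures.

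The KO libraries held 22505644 and 23641671 counts at day 2, and 27147835 and 10750570 counts at day 3, within the range of 10601574 to 27147835 over the 16 course libraries. The 2 day 3 libraries stood apart. Replicate 1 correlated with the KO day 2 libraries at a mean Pearson r of 0.977 and with the KO day 4 libraries at 0.966 across genes, whereas replicate 2 correlated at 0.956 and 0.983. On the first principal component, which held 60.8% of the variance, the day 2 libraries lay at -34.1 and -10.7, the day 3 libraries at 35.2 and 74.0, and the day 4 libraries at 108 and 92.1. Replicate 2 of day 3 was thus the farther along the course, and it was also the shallower of the pair. Results are therefore given with and without single libraries where a left-out library changes them.

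**Figure D1:**
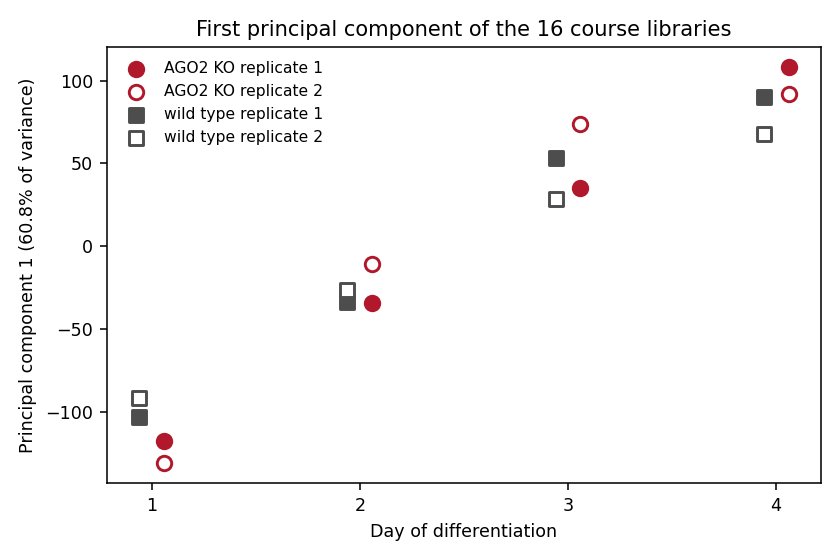
First principal component (vertical axis, arbitrary units) of the 16 course libraries by day (horizontal axis), with filled symbols for replicate 1 and open symbols for replicate 2. The KO day 3 libraries lie at 35.2 and 74.0, between the day 2 and the day 4 libraries.

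Ago2, the labelled target, was still counted in every KO library. Its level was 56.1 and 84.6 counts per 1000000 (CPM, scaled by library) on day 2, and 77.4 and 122 CPM at day 3. The groups overlapped, and the log2 difference of 0.50 ± 0.29 (SE) did not pass the test (adjusted p = 0.313). A count over the whole gene does not show whether the transcript still codes for protein, and exons of Ago2 overlap those of Chrac1, so these counts check the label only weakly.

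Of 17694 genes tested, 1654 (9.35%) passed the test at an adjusted p below 0.05 between day 2 and day 3. The level of 1075 genes (6.08% of those tested) rose and that of 579 (3.27%) fell, while the median log2 difference over all tested genes was -0.0048. Among the genes that rose the median log2 difference was 1.27, and 691 of them at least doubled. Among those that fell it was -1.36, and 421 at least halved. The 2 groups did not overlap for any called gene, but the same held for 59.1% of all tested genes (29.6% higher and 29.6% lower). Lack of overlap between days, given below for single called genes, thus adds nothing to their calls. The number of calls rested on single libraries: it was 144 without day 2 replicate 1, 796 without day 2 replicate 2, 1910 without day 3 replicate 1 and 350 without day 3 replicate 2. The call was kept in each of these 4 repeats for 140 genes, 103 that rose and 37 that fell. Counts of list members in these repeats, given below, are to be set beside the calls over all genes in the same repeat. Where few genes passed in all, a low count says little about a list. In 1373 of the 1654 called genes (83.0%), day 3 replicate 2 lay farther from the day 2 mean than replicate 1. In bulk RNA, a change in the number of cells of a type and a change in RNA per cell cannot be told apart.

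**Figure D2:**
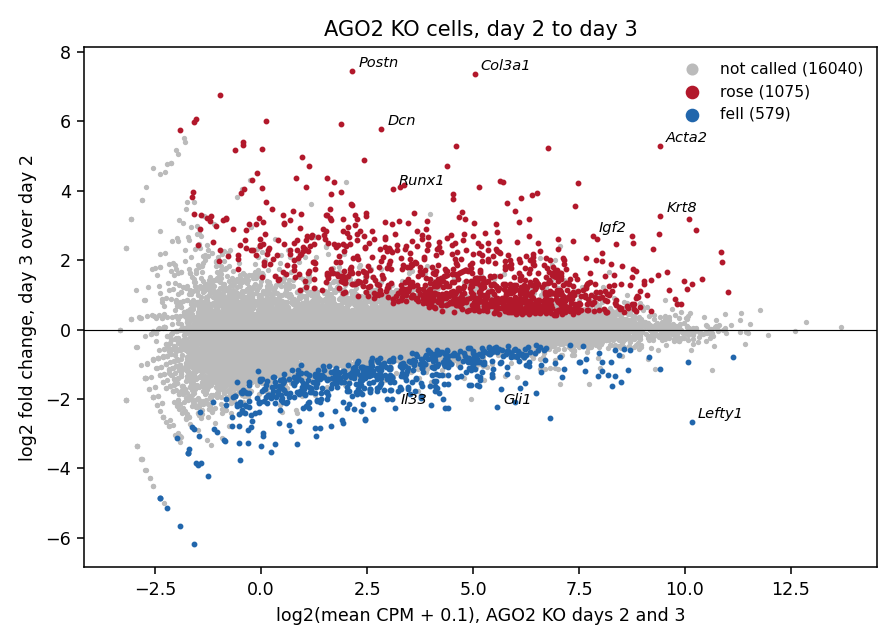
Log2 fold change from day 2 to day 3 in KO cells (vertical axis) against the log2 of the mean level in CPM plus 0.1 (horizontal axis) for each of the 17694 genes tested. Red points are the 1075 genes that rose and blue points the 579 that fell.

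The 10 largest rises were sought among called genes that averaged 5 CPM or more on the higher day and did not overlap between days, and had log2 differences of 4.38 or more. Dcn, which codes for the collagen-binding proteoglycan decorin, stood at 0.0415 and 0.441 CPM at day 2 and at 12.1 and 15.5 CPM at day 3, a log2 difference of 5.78 ± 0.49 (adjusted p = 0.000161). Acta2, smooth muscle actin, went from 20.6 and 47.1 CPM to 1027 and 1615 CPM (log2 difference 5.28 ± 0.83, adjusted p = 0.00371). Col3a1, a fibrillar collagen, went from 0.166 and 0.601 CPM to 20.3 and 110.1 CPM (7.35 ± 1.02, adjusted p = 0.0035). In all 3 genes both day 3 libraries lay far above both day 2 libraries, and replicate 2 was the higher on either day. Postn, a matricellular protein, had 2 counts in the day 2 libraries together and 238 at day 3, a ratio of levels of 158 with a 95% counting interval of 43.2 to 1312. The other genes among the 10 largest rises were Ccdc80 (5.28), Wisp1 (4.71), Col12a1 (5.22), Adam12 (4.87), Dkk2 (5.91) and Rgs4 (4.38), all as log2 differences. Dcn, Ccdc80 and Wisp1 passed the test without each library in turn. The other 7 did not pass without day 2 replicate 1 (adjusted p from 0.050 to 0.194), and Dkk2, at 5 counts over both day 2 libraries, also failed without day 2 replicate 2 (0.116) and without day 3 replicate 2 (0.0726, log2 difference 3.93).

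By the same rule, the 10 largest falls had log2 differences of -2.26 to -2.77, smaller in size than the 10 largest rises. Larger falls lay outside the rule, in genes below 5 CPM or predicted genes, which are not named. Over all called genes, 25 fell and 96 rose at least 8-fold. Lefty1, a secreted inhibitor of Nodal, stood at 1967 and 1962 CPM at day 2 and at 431 and 195 CPM at day 3 (log2 difference -2.65 ± 0.39, adjusted p = 0.00242). Alox15, a lipoxygenase, fell from 8.68 and 6.33 CPM to 1.84 and 1.07 CPM (-2.29 ± 0.38, adjusted p = 0.00282). Both genes showed no overlap between days and passed the test without each library in turn. Upp1, a uridine phosphorylase, stood at 235 and 152 CPM and then at 39.5 and 26.1 CPM (log2 difference -2.55). Other genes among the 10 largest falls were the ascorbate transporter Slc23a1 (-2.77), Ndufa4l2 (-2.68), Crocc2 (-2.35), the netrin receptor Unc5a (-2.34), Col6a5 (-2.30) and the oxygen-sensing hydroxylase Egln3 (-2.26). Upp1 and these 6 failed the test without day 2 replicate 1 (adjusted p from 0.0786 to 0.153) and without day 3 replicate 2 (0.0584 to 0.0982), and Ndufa4l2 also without day 3 replicate 1 (0.0653). Without day 2 replicate 1 the log2 difference of Ndufa4l2 was -1.78, and without day 3 replicate 1 those of Slc23a1 and Crocc2 were -4.77 and -3.81. Exons of Ndufa4l2 overlap those of Shmt2, and exons of Unc5a those of Hk3, so their reads may be shared.

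**Figure D3:**
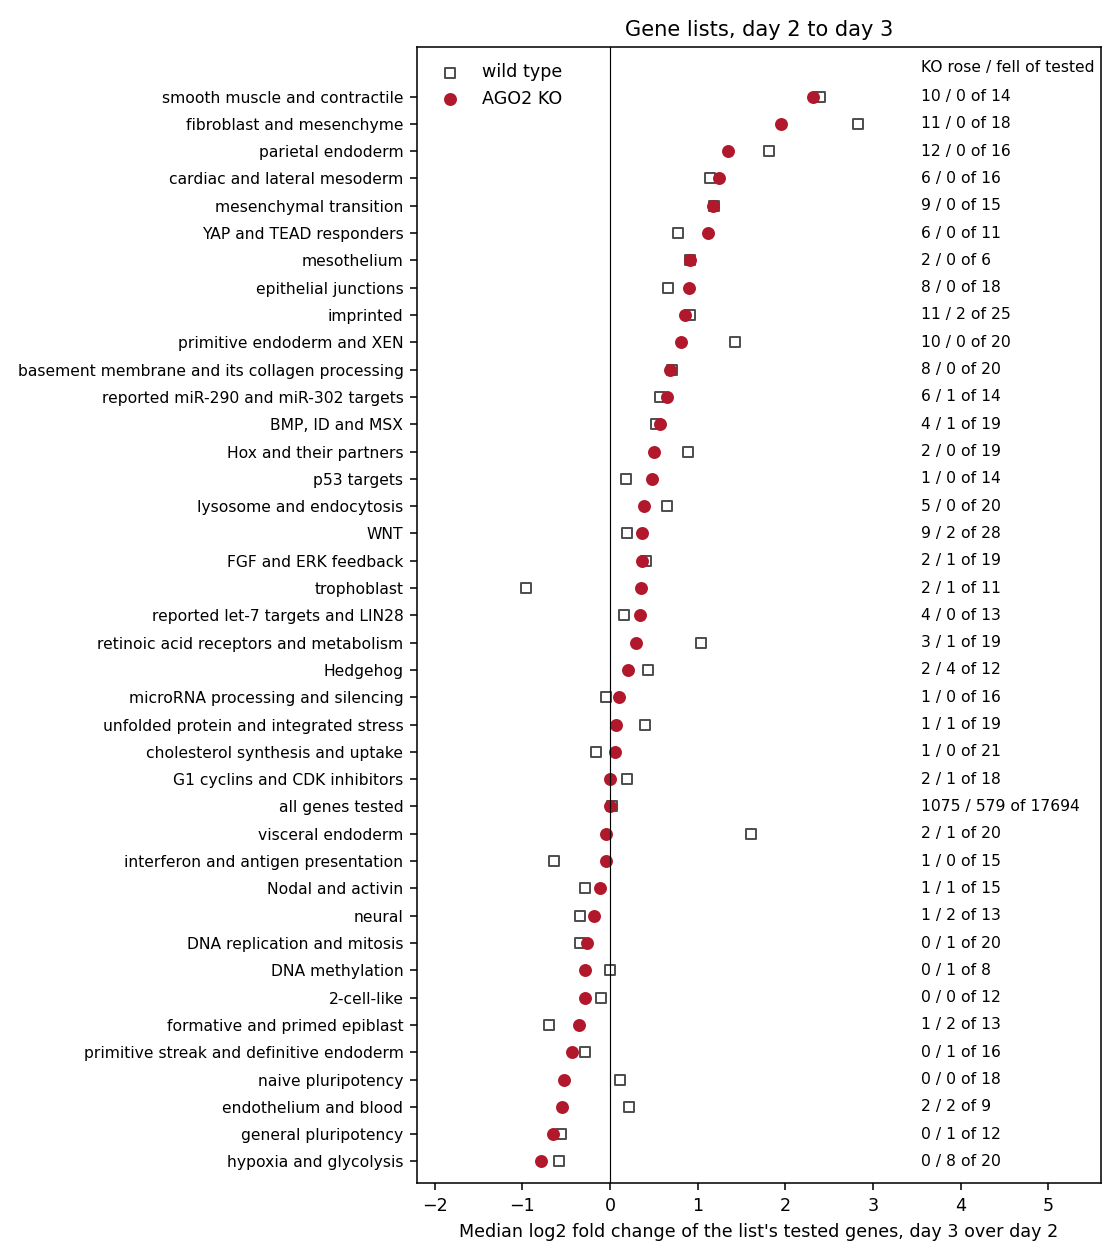
Median log2 fold change from day 2 to day 3 (horizontal axis) of the tested genes of each of 39 gene lists (rows), for KO (circles) and WT cells (squares), with the numbers of genes that rose and fell in KO cells at the right. Smooth muscle and contractile genes are at the top with a KO median of 2.31, and hypoxia and glycolysis genes at the bottom with -0.78. Lists share some genes. Over all tested genes, 6.08% rose and 3.27% fell in KO cells, the shares to set beside the counts of each list.

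The cells were checked against markers of the lineage they are labelled for. Of 20 primitive endoderm and XEN genes, 10 rose and none fell, with a median log2 difference of 0.81 (against -0.0048 over all genes). Their summed level went from 1948 and 2197 CPM to 4848 and 6273 CPM. The list and its sum include the keratin genes Krt8 and Krt18 (log2 differences 3.28 and 2.74), given below with the epithelial genes. The sum is therefore not one of lineage-specific genes alone. Gata6, a transcription factor that specifies primitive endoderm, was at 3.37 and 5.77 CPM at day 2 and at 13.5 and 37.9 CPM at day 3 (log2 difference 2.46 ± 0.43, adjusted p = 0.00535). The day 3 libraries were both above day 2, but differed from each other more than the day 2 libraries did. Sox17 stood at 0.997 and 1.88 CPM, then at 5.04 and 3.39 CPM (1.57 ± 0.42, adjusted p = 0.0306). Dab2, an endocytic adaptor of extraembryonic endoderm, stood at 77.7 and 92.8 CPM, then at 203 and 140 CPM (1.01 ± 0.22, adjusted p = 0.0118). For these 2 genes, replicate 1 was the higher at day 3, the reverse of Gata6. Gata4 (log2 difference 0.35, adjusted p = 0.371), Sox7 (0.67, 0.168) and Pdgfra (0.67, 0.278) did not pass the test. The Gata6 call was lost without day 2 replicate 1 (adjusted p = 0.0918), and its log2 difference was 1.55 without day 3 replicate 2. The call of Dab2 was lost without day 2 replicate 1 (0.164) and without day 3 replicate 1 (0.0669), and that of Sox17 without these (0.312 and 0.162) and without day 3 replicate 2 (0.0667). Of the 20 genes, 1 passed the test without day 2 replicate 1.

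Parietal endoderm genes share members with the primitive endoderm list. Of 16, 12 rose and none fell, with a median log2 difference of 1.34. The rises include Vim (2.69) and Fn1 (1.18), also on the mesenchymal list below, and Krt19 (2.18), also on the epithelial list. Pth1r, on the parietal list, did not pass the test (-0.09). Plat, the tissue plasminogen activator made by parietal endoderm, went from 8.64 and 14.2 CPM to 34.2 and 88.6 CPM (2.41 ± 0.40, adjusted p = 0.0041). Fst, follistatin, which binds activins, went from 6.15 and 11.2 CPM to 45.9 and 35.4 CPM (2.23 ± 0.43, adjusted p = 0.00729). Days did not overlap in either gene. The basement membrane genes Col4a2 (37.1 and 52.8 CPM, then 114 and 162 CPM), Col4a1 (47.3 and 66.6 CPM, then 149 and 226 CPM), Lamb1 (294 and 346 CPM, then 558 and 646 CPM) and Sparc (295 and 311 CPM, then 649 and 849 CPM) rose by log2 differences of 0.91 to 1.72. Of 20 genes of basement membrane and its collagen processing, 8 rose and none fell (median 0.69). Col4a2 kept its call without each library in turn. Plat, Fst, Col4a1, Lamb1 and Sparc lost it without day 2 replicate 1 (adjusted p from 0.050 to 0.116), without which 1 of the 16 parietal genes passed, and the log2 difference of Plat was 1.57 without day 3 replicate 2.

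Of 20 visceral endoderm genes, 2 rose and 1 fell, with a median of -0.04. These shares lie near those over all tested genes, of which 6.08% rose and 3.27% fell, and without day 2 replicate 1 none of the 20 passed (edgeR; 4 at an unadjusted p below 0.05). Their summed level was 712 and 915 CPM on day 2, then 772 and 719 CPM on day 3. Cubn, the cubilin receptor of absorptive endoderm, rose from 4.57 and 5.57 CPM to 19.1 and 20 CPM (1.94 ± 0.35, adjusted p = 0.00537). Its membrane partner Amn was at 0.706 and 0.882 CPM, then at 1.69 and 1.16 CPM, and did not pass (adjusted p = 0.177). Hnf4a, the nuclear receptor that drives visceral endoderm genes, fell from 2.83 and 1.84 CPM to 0.902 and 0.872 CPM (-1.38 ± 0.39, adjusted p = 0.0398). Levels this low were above 0 in each library, and the days did not overlap. Without day 2 replicate 1 the adjusted p was 0.0975 for Cubn and 0.320 for Hnf4a, and the call of Hnf4a was also lost without day 3 replicate 1 (0.130) and without day 3 replicate 2 (0.163).

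**Figure D4:**
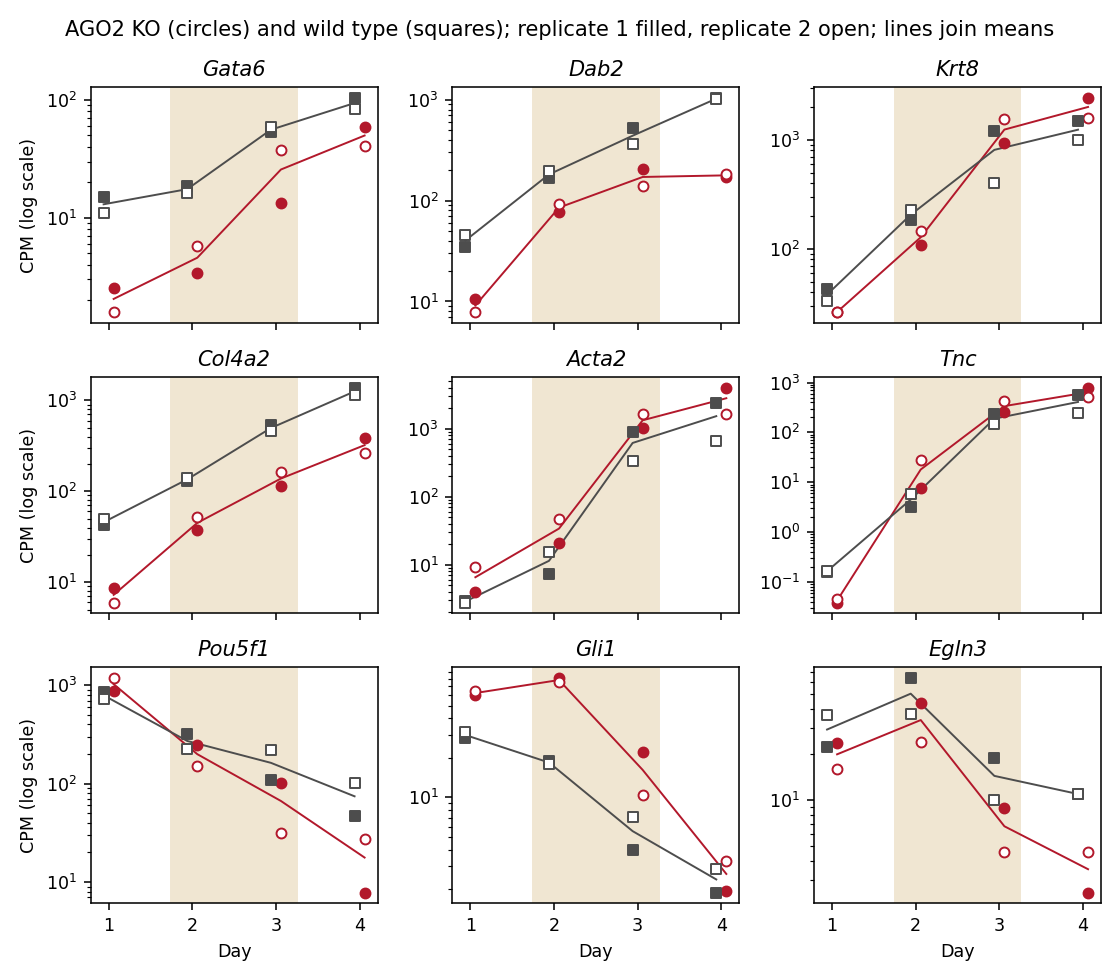
Levels in CPM (vertical axis, log scale) of 9 genes by day (horizontal axis) in KO (circles) and WT cells (squares), with replicate 1 filled and replicate 2 open, lines through the means and days 2 to 3 shaded. Gata6, Krt8, Acta2 and Tnc were higher in both KO libraries of day 3 than in either of day 2, and Gli1 and Egln3 were lower.

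The pluripotency genes were lower at day 3 mainly in replicate 2, and few passed the test. Of 18 naive pluripotency genes none passed the test with edgeR (4 at an unadjusted p below 0.05), while 3 fell by DESeq2, 1 fell with the stricter filter on low counts, and 8 fell and 1 rose with no filter. Without day 3 replicate 1, 3 fell. Their median log2 difference was -0.53, but -1.81 without day 3 replicate 1 and -0.05 without replicate 2, and their summed level was 3367 and 2610 CPM on day 2, then 2159 and 944 CPM on day 3. Pou5f1, which codes for OCT4, was at 248 and 151 CPM at day 2 and at 102 and 31.5 CPM at day 3 (log2 difference -1.57 ± 0.63, adjusted p = 0.144). Nanog was at 239 and 176 CPM, then at 200 and 49.1 CPM (-0.73 ± 0.72, adjusted p = 0.578). Sox2 was at 140 and 110 CPM, then at 172 and 39.8 CPM (-0.23 ± 0.58, adjusted p = 0.853). Without day 3 replicate 1 the log2 difference of Pou5f1 was -2.67 (adjusted p = 0.0594) and that of Nanog -2.09 (0.166). Pou5f1 did not overlap between days, whereas for Nanog and Sox2 replicate 1 of day 3 lay within or above the day 2 libraries and replicate 2 far below them. Esrrb showed the same split, at 131 and 97.9 CPM, then 125 and 33.7 CPM (adjusted p = 0.671). Of 12 general pluripotency genes, L1td1 fell, from 311 and 246 CPM to 154 and 89.5 CPM (-1.19 ± 0.28, adjusted p = 0.02), a call lost without day 2 replicate 1 (0.194) and without day 3 replicate 2 (0.189). Without day 3 replicate 1, 5 of the 12 fell.

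The contractile genes had the highest median of the lists. Of 14 smooth muscle and contractile genes, 10 rose and none fell, with a median log2 difference of 2.31, and their summed level was 1095 and 1571 CPM on day 2, then 7225 and 9100 CPM on day 3. Tpm1, a tropomyosin of actin filaments, rose from 552 and 748 CPM to 2852 and 3206 CPM (2.22 ± 0.27, adjusted p = 0.000675). Cald1, the actin-binding caldesmon, rose from 157 and 249 CPM to 750 and 1265 CPM (2.31 ± 0.30, adjusted p = 0.000982). Both kept their calls without each library in turn. Tagln rose from 156 and 281 CPM to 1862 and 2092 CPM (3.18 ± 0.52, adjusted p = 0.00402), and Cnn1, calponin, from 11.1 and 17.1 CPM to 103 and 141 CPM (3.11 ± 0.52, adjusted p = 0.00481). No gene of these 4 overlapped between days. Exons of Tagln overlap those of Pcsk7. Without day 2 replicate 1, the adjusted p was 0.087 for Tagln and 0.0977 for Cnn1, and 2 of the 14 genes rose. When the 4 KO libraries were compared alone, 13 of the 14 rose.

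Many contractile genes are bound by serum response factor at the CArG box. Promoters of 250 bases before to 50 bases after the start (RefSeq, GRCm38.p6) were at hand for 11 of the 14 genes, and 3 of them held a strict CArG box. Its pattern, CC, then only A or T, then GG, matches both strands alike, though a single box need not read the same on both. Of all 32851 promoters, 1.63% held a box, a share of promoters rather than of genes. The third gene with a box was Myl7. Acta2, Cnn1, Tpm1 and Cald1, which also rose, held no box of this strict pattern in this window. Boxes with any other base between CC and GG were not sought. Shown are 2 of the 3, of Myl9 and Actc1, as the list members with a box that rose, chosen after their values were seen. The box is in capitals.
Myl9 promoter, chr2:156775214-156775513, plus strand: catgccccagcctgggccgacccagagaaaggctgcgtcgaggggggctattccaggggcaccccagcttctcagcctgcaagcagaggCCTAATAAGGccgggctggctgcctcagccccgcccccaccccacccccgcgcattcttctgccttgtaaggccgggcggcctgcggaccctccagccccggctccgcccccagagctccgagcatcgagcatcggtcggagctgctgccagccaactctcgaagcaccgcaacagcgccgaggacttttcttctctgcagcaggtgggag
Actc1 promoter, chr2:114052826-114053125, minus strand: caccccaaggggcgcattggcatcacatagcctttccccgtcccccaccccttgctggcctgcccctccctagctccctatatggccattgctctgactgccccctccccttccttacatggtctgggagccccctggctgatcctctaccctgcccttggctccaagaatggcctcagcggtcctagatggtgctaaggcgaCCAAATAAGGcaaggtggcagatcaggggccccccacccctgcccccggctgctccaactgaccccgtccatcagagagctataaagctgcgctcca
The box starts 161 bases before the start in Myl9, a regulatory light chain of myosin, and 47 bases before it in Actc1, cardiac actin. Myl9 stood at 34.1 and 52.0 CPM at day 2 and at 206 and 221 CPM at day 3 (2.31 ± 0.54, adjusted p = 0.024). Actc1 stood at 2.66 and 6.98 CPM, then at 72.9 and 115 CPM (4.28 ± 0.87, adjusted p = 0.0123). Both were higher in both day 3 libraries, and both passed in 1 of the 4 repeats only, without day 3 replicate 1 (adjusted p = 0.0467 and 0.0169). Over all tested genes with a promoter sequence, 31 of 189 with a box rose (16.4%) and 7 fell (3.70%), against 6.27% and 3.38% of 11825 without one. The match is a description of the letters and was not tested as a binding site.

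Of 18 fibroblast and mesenchyme genes, 11 rose and none fell (median 1.95), and their summed level went from 784 and 868 CPM to 1999 and 3509 CPM. Tnc, the matrix protein tenascin C, rose from 7.81 and 28.2 CPM to 254 and 420 CPM (4.22 ± 0.61, adjusted p = 0.00256), and Loxl1, a collagen and elastin cross-linking enzyme, from 5.15 and 6.41 CPM to 22.7 and 35.7 CPM (2.32 ± 0.34, adjusted p = 0.00163). Both kept their calls without each library in turn, and 4 of the 18 did so without day 2 replicate 1. Of 15 genes of mesenchymal transition, 9 rose and none fell (median 1.18); without day 2 replicate 1 the count was 0 (edgeR; 10 at an unadjusted p below 0.05), and without day 3 replicate 2 it was 2. Among the 9 was Vim, vimentin, from 98.3 and 133 CPM to 501 and 990 CPM (2.69 ± 0.44, adjusted p = 0.00411). Of 16 cardiac and lateral mesoderm genes, 6 rose and none fell (median 1.25); their summed level, 124 and 145 CPM on day 2, then 242 and 291 CPM on day 3, was far below that of the contractile list. None of the 16 passed without day 2 replicate 1 (edgeR; 7 at an unadjusted p below 0.05), and 2 rose without day 2 replicate 2 and 1 without day 3 replicate 2. Foxf1, a lateral mesoderm transcription factor, went from 1.45 and 2.33 CPM to 4.96 and 6.20 CPM (1.54 ± 0.37, adjusted p = 0.0201). Days did not overlap in these genes. Vim and Foxf1 lost their calls without day 2 replicate 1 (0.0864 and 0.250), and Foxf1 also without day 3 replicate 2 (0.127). Nes, a filament gene used here in the neural list, rose from 35.4 and 59.5 CPM to 213 and 343 CPM (2.55 ± 0.35, adjusted p = 0.00169), while Sox1 of the same list fell (-1.76 ± 0.49, adjusted p = 0.0389; 0.192 without day 2 replicate 1, 0.124 without day 2 replicate 2 and 0.263 without day 3 replicate 2, and a log2 difference of -2.77 without day 3 replicate 1).

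Of 18 genes of epithelial junctions and keratins, 8 rose and none fell (median 0.90), and their summed level went from 1476 and 1741 CPM to 4335 and 5661 CPM. Krt8, a keratin of simple epithelia, rose from 109 and 146 CPM to 936 and 1546 CPM (3.28 ± 0.46, adjusted p = 0.00218), and its filament partner Krt18 from 154 and 192 CPM to 1041 and 1278 CPM (2.74 ± 0.45, adjusted p = 0.0039). Cdh1, E-cadherin, rose from 272 and 302 CPM to 730 and 791 CPM (1.4 ± 0.22, adjusted p = 0.00248), and Cldn6, a tight junction claudin, from 54.4 and 53.4 CPM to 115 and 112 CPM (1.07 ± 0.17, adjusted p = 0.00218). The libraries of each day lay close together for Cdh1 and Cldn6, and the days were apart. Cldn6 kept its call without each library in turn. Without day 2 replicate 1 the adjusted p was 0.0512 for Cdh1, 0.0514 for Krt8 and 0.0827 for Krt18, and 1 of the 18 genes passed.

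Over all tested genes, 6.08% rose and 3.27% fell. Of 12 tested genes of the Hedgehog pathway, 2 rose, 4 fell and 6 did not pass the test. Among those that fell were Gli1, a transcriptional target and effector of the pathway, from 80.9 and 75.6 CPM to 22.0 and 10.4 CPM (-2.24 ± 0.31, adjusted p = 0.00123), and the receptor gene Ptch1, itself a target, from 416 and 527 CPM to 193 and 109 CPM (-1.64 ± 0.29, adjusted p = 0.0048). The ligand-binding Hhip (-1.11) fell too. The genes that rose were those of 2 co-receptors, Gas1 from 8.52 and 15.9 CPM to 46.4 and 90.8 CPM (2.48 ± 0.47, adjusted p = 0.00851) and Boc from 8.89 and 10.8 CPM to 20.4 and 26.9 CPM (1.26 ± 0.23, adjusted p = 0.005). Gli1 and Ptch1 kept their calls without each library in turn. Without day 2 replicate 1, Hhip, Gas1 and Boc lost theirs (adjusted p from 0.0953 to 0.131), as they did without day 3 replicate 2 (0.055 to 0.154), and Hhip also without day 2 replicate 2 (0.175) and day 3 replicate 1 (0.112). Exons of Gli1 overlap those of Arhgap9.

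Of 28 genes of the WNT pathway, 9 rose and 2 fell (median 0.37), with 2 rises and no fall without day 2 replicate 1, and 5 rises without day 3 replicate 2. Over all tested genes, 6.08% rose and 3.27% fell. Dkk1, a secreted WNT antagonist, rose from 1.74 and 2.41 CPM to 11.2 and 14.4 CPM (2.61 ± 0.23, adjusted p = 0.000161). The ligand gene Wnt6 rose from 1.12 and 1.08 CPM to 5.67 and 8.63 CPM (2.67 ± 0.33, adjusted p = 0.000647). Both kept their calls without each library in turn. The ligand gene Wnt11 rose from 2.12 and 1.88 CPM to 6.28 and 19.8 CPM (2.66 ± 0.45, adjusted p = 0.00347), with an adjusted p of 0.0586 without day 2 replicate 1 and a log2 difference of 1.64 without day 3 replicate 2. The receptor gene Fzd10 fell, from 57.1 and 47.7 CPM to 23.5 and 14.1 CPM (-1.46 ± 0.27, adjusted p = 0.00537; 0.0808 without day 2 replicate 1 and 0.0695 without day 3 replicate 2).

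Of 15 Nodal and activin genes, Fst rose and Lefty1 fell. These shares lie near those over all tested genes, of which 6.08% rose and 3.27% fell. Nodal was at 250 CPM in both day 2 libraries and at 194 and 128 CPM at day 3 (-0.63 ± 0.41, adjusted p = 0.375), and Lefty2 at 924 and 790 CPM, then 522 and 260 CPM (-1.13 ± 0.40, adjusted p = 0.1). Both were lower in both day 3 libraries but did not pass, and Lefty2 passed without day 3 replicate 1 (0.0378). In the BMP list 4 of 19 genes rose and 1 fell (median 0.57), with 1 rise and no fall without day 2 replicate 1. The ligand gene Bmp5 rose from 0.208 and 0.0802 CPM to 2.18 and 4.17 CPM (4.35 ± 0.67, adjusted p = 0.00242), from 7 counts over both day 2 libraries, and kept its call without each library in turn. The antagonist Nog rose (2.83 ± 0.53, adjusted p = 0.00556; 0.110 without day 2 replicate 1). The YAP and TEAD responders had 6 of 11 genes up and none down (median 1.11), among them Axl, a receptor tyrosine kinase, from 8.93 and 11.9 CPM to 42.3 and 75.7 CPM (2.49 ± 0.38, adjusted p = 0.00259). Axl had an adjusted p of 0.0554 without day 2 replicate 1, where none of the 11 passed (edgeR; 6 at an unadjusted p below 0.05), and 1 rose without day 3 replicate 2.

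Of 20 genes of glycolysis and of the hypoxia response, none rose and 8 fell (median -0.78). No gene of the list passed the test (edgeR) without day 2 replicate 1 (8 at an unadjusted p below 0.05, median -0.56) or without day 3 replicate 2 (11, median -0.66). Their summed level went from 13054 and 11031 CPM to 7591 and 7199 CPM. Pfkl, the liver-type phosphofructokinase, fell from 458 and 376 CPM to 178 and 159 CPM (-1.31 ± 0.27, adjusted p = 0.00909). Aldoa, aldolase A, fell from 1582 and 1234 CPM to 759 and 719 CPM (-0.93 ± 0.21, adjusted p = 0.0156), and Ldha, a subunit of lactate dehydrogenase, from 1052 and 826 CPM to 352 and 503 CPM (-1.14 ± 0.30, adjusted p = 0.0307). Bnip3, a mitochondrial hypoxia-response gene, fell from 95.4 and 58.2 CPM to 25.0 and 21.6 CPM (-1.72 ± 0.33, adjusted p = 0.00801). None of the 4 genes overlapped between days. All 4 failed the test without day 2 replicate 1 (adjusted p from 0.0958 to 0.244) and without day 3 replicate 2 (0.0695 to 0.116), and Ldha also failed without day 3 replicate 1 (0.126).

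Of 25 imprinted genes, which are read from 1 parental allele, 11 rose and 2 fell (median 0.86). Igf2, a fetal growth factor, rose from 54.2 and 66.0 CPM to 330 and 452 CPM (2.70 ± 0.27, adjusted p = 0.00018) and kept its call without each library in turn; its exons overlap Igf2os. The noncoding Meg3 rose from 57.7 and 64.3 CPM to 168 and 187 CPM (1.54 ± 0.24, adjusted p = 0.00225), and its neighbour Rian from 110 and 131 CPM to 266 and 354 CPM (1.36 ± 0.22, adjusted p = 0.00247). Days did not overlap. Both failed without day 2 replicate 1 (0.0551 and 0.0564), where 1 of the 25 rose. In the retinoic acid list 3 of 19 genes rose and 1 fell, against 6.08% and 3.27% of all tested genes, and none passed without day 2 replicate 1 (edgeR; 4 at an unadjusted p below 0.05). Rdh10, which makes the retinoic acid precursor retinal, rose from 10.8 and 14.5 CPM to 52.3 and 64.0 CPM (2.20 ± 0.36, adjusted p = 0.00347; 0.073 without day 2 replicate 1). Stra8, a retinoic acid response gene, fell from 539 and 530 CPM to 167 and 205 CPM (-1.52 ± 0.35, adjusted p = 0.0173), a call lost without each of the 4 libraries (0.0657 to 0.142). Runx1, a transcription factor of blood formation in the list for endothelium and blood, rose from 0.789 and 1.08 CPM to 9.36 and 22.7 CPM (4.05 ± 0.39, adjusted p = 0.00018) and kept its call in every repeat, while Pecam1 of the same list, also made by embryonic stem cells, fell from 62.4 and 41.9 CPM to 27.8 and 16.5 CPM (-1.21 ± 0.33, adjusted p = 0.0388; 0.325 without day 2 replicate 1, 0.283 without day 3 replicate 2).

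Because AGO2 carries microRNAs, the genes reported as targets of the embryonic stem cell families miR-290 and miR-302 and of let-7 were described with their seeds. The mature sequences (RefSeq, GRCm38.p6) are shown with bases 2 to 8, the seed, in capitals; the first 3 share a seed.
mmu-miR-291a-3p: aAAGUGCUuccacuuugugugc
mmu-miR-294-3p: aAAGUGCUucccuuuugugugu
mmu-miR-302b-3p: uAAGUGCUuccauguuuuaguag
mmu-let-7a-5p: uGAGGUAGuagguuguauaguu
In the WT step, 6 of the 14 reported targets of miR-290 and miR-302 rose and 1 fell (median 0.58). Of the 13 of let-7 and LIN28, 3 rose and none fell there (median 0.16). In KO cells 6 of the first list rose and 1, Lefty1, fell (median 0.65). Of the second, 4 rose and none fell (median 0.34). Over all tested genes, 6.08% rose and 3.27% fell in KO cells, and 8% rose and 5.34% fell in the WT step. In each list 1 gene rose without day 2 replicate 1, and without day 3 replicate 2, 3 and 1. Tgfbr2, a receptor for TGF-beta, rose from 2.91 and 4.97 CPM to 15.2 and 27.3 CPM (2.41 ± 0.37, adjusted p = 0.00225), and Rhoc, a small GTPase, from 73.5 and 75.9 CPM to 134 and 179 CPM (1.07 ± 0.22, adjusted p = 0.00869). Hmga2, a chromatin protein and the best known let-7 target, rose from 59.2 and 75.9 CPM to 244 and 206 CPM (1.74 ± 0.25, adjusted p = 0.00136). Days did not overlap in any of the 3. Hmga2 kept its call without each library in turn, whereas Tgfbr2 (0.0501) and Rhoc (0.110) lost theirs without day 2 replicate 1, and Rhoc without day 3 replicate 2 (0.0959).

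The letters that pair with the seed were found in the longest annotated 3′ untranslated region (UTR; GENCODE M21) of these genes, and the first match in each is given with its flanks, the match in capitals. Shown are 3 of the 10 genes of these lists that rose and the 1 that fell, as examples picked after their values were seen; 5 other genes that rose also hold a match.
Tgfbr2: ggatagcgttAGCACTTgacaatcagt
Rhoc: attacacaccAGCACTTtatatatttt
Lefty1: ctgtatgcgaAGCACTTacatgtatag
Hmga2: cattcaatttCTACCTCagcatcagtt
Tgfbr2 held 3 such matches, Rhoc and Lefty1 1 each, and Hmga2 4. Dkk1 and Nr2f2, also on the first list, rose (2.61 and 3.12; Nr2f2 had an adjusted p of 0.101 without day 2 replicate 1) with no match. Over 14664 tested genes with an annotated 3′ UTR, 205 of the 2454 with at least 1 AGCACTT rose (8.35%) and 60 fell (2.44%), against 6.76% and 3.78% of 12210 without it, and the median log2 differences were 0.12 and -0.0052. Of 447 genes with 2 or more matches, 11.4% rose and 0.895% fell (median 0.20). The UTRs with a match were also longer, with a median of 2511 bases against 933, and 3884 bases with 2 or more matches. When genes were placed in 3 classes of equal size by UTR length, the share that rose was 9.16% with and 9.85% without a match in the longest class, 6.75% and 7.79% in the middle class, and 6.12% and 3.75% in the shortest, where 147 genes held a match. For CTACCTC the shares that rose were 7.5% of 1534 genes with a match and 6.98% of 13130 without; by UTR length they were 8.49% and 9.89% in the longest class, 5.86% and 7.83% in the middle class, and 5.88% and 3.77% in the shortest. For AGCACTT, the median log2 differences with and without a match were 0.16 and 0.13 in the longest class. They were 0.06 and 0.03 in the middle class, and -0.08 and -0.12 in the shortest. The shares that fell were, in the same order, 1.68% and 2.49%, 3.45% and 3.41%, and 6.8% and 4.98%. For CTACCTC the medians were 0.13 and 0.15, 0.02 and 0.04, and -0.14 and -0.12. These counts and medians were chosen after the data were seen and carry no test.

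The same step in WT cells had 2360 calls (13.3% of the genes tested), 1416 higher (8%) and 944 lower (5.34%). Of the 1075 genes that rose in KO cells, 707 rose in WT cells too (65.8%, or 49.9% of the WT rises), and of the 579 that fell, 273 fell in WT cells (47.2%, or 28.9% of the WT falls). The WT log2 difference was above 0 for 98.1% of the KO rises and below 0 for 92.6% of the KO falls, where 51.6% of all tested genes were above 0. The steps share no library, and their log2 differences correlated across the 17694 genes with a Pearson r of 0.67 and a Spearman rho of 0.63; genes are not independent replicates. The test of the difference between the steps called no gene (0%) with edgeR (1009 at an unadjusted p below 0.05), 31 with DESeq2, 531 without WT day 3 replicate 1 and 3 without KO day 3 replicate 2.

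**Figure D5:**
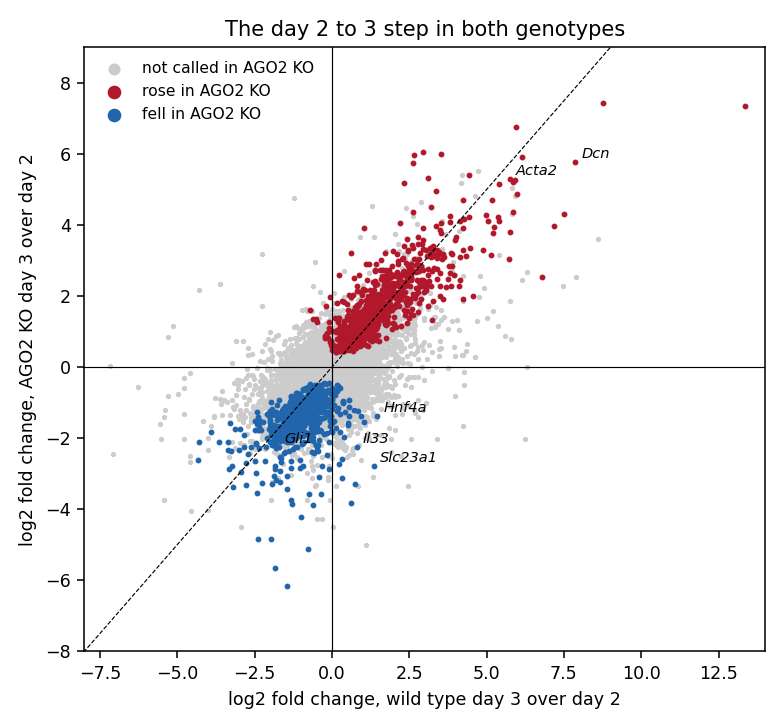
Log2 fold change from day 2 to day 3 in KO cells (vertical axis) against that in WT cells (horizontal axis) for the 17694 genes tested, with genes that rose (red) or fell (blue) in KO cells and the line of equal change (dashed). Most called genes lie in the quadrants of like sign; Hnf4a, Il33 and Slc23a1 lie below and to the right of 0.

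Among the 5 genes with the smallest p-values for that difference were Il33, Hnf4a, Slc23a1 and Pth1r, each with the KO step below the WT step. Il33, a cytokine, fell from 13.6 and 15.3 CPM to 2.07 and 4.36 CPM in KO cells (-2.25 ± 0.33, adjusted p = 0.00147, kept without each library in turn), and was at 6.19 and 3.79 CPM, then 9.05 and 8.26 CPM in WT cells (difference of the log2 steps -3.05 ± 0.45, adjusted p = 0.0814). Il33 was thus lower at day 3 in KO cells and higher in WT cells. Hnf4a went from 5.16 and 4.30 CPM to 14.5 and 11.7 CPM in WT cells (log2 difference 1.47) where it fell in KO cells (-1.38; adjusted p of the difference 0.206). For Slc23a1 the adjusted p of the difference was 0.228, and for the parathyroid hormone receptor gene Pth1r, with a KO log2 difference of -0.09 and a WT one of 1.76, it was 0.281. Of the visceral endoderm list, 9 of 20 genes rose in WT cells (median 1.60) and 2 in KO cells, and of the lysosome and endocytosis list 13 of 20 and 5. For primitive endoderm and XEN genes it was 16 of 20 in WT cells (median 1.43) and 10 in KO cells (0.81). Other lists were closer: contractile genes had 9 of 14 in WT cells (2.40) and 10 in KO cells (2.31). Fibroblast and mesenchyme genes had 11 of 18 in each (2.83 in WT and 1.95 in KO cells). None of these genes passed the test of the difference with edgeR.

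Along the KO course, 7612 genes (43%; 22.9% higher and 20.1% lower) were called from day 1 to day 2 and 62 (0.35%; 0.164% higher and 0.187% lower) from day 3 to day 4 (849 with DESeq2, and 1333 without day 3 replicate 2). The genes that rose from day 2 to 3 had a median log2 difference of 1.03 in the step before and 0.50 in the step after, and those that fell had -0.48 and -0.58; neighbouring steps share the libraries of a day. A test of the difference between the day 2 to 3 step and the step before called 4.59% of genes (1.31% with the higher and 3.28% with the lower later step), and that between the day 3 to 4 step and the day 2 to 3 step 0.00565%, all of them lower. Of the 1075 that rose, 636 had also risen from day 1 to 2 and 24 had fallen, and of the 579 that fell, 229 had also fallen and 68 had risen. Gli1 stood at 59.8 and 64.8 CPM at day 1, fell from day 2 to 3 as given above, and fell again at day 4 (1.95 and 3.28 CPM, log2 difference from day 3 -2.64, adjusted p = 0.0127). Col4a2 (383 and 261 CPM at day 4, 1.22, adjusted p = 0.0463) and Igf2 (1.34, adjusted p = 0.0451) rose again. These 3 calls between days 3 and 4 were lost without day 3 replicate 1 (adjusted p of 0.261 for Gli1 and 0.861 for Col4a2 and Igf2), without day 4 replicate 1 (0.205 and 0.397) and when the 4 libraries were fitted alone (0.275); those of Col4a2 and Igf2 were also lost with the stricter filter (0.0544 and 0.0536) and with the replicate block (0.0909 and 0.0805).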

How the data were processed

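RNA of each culture was extracted with Trizol and poly(A) libraries were read on a HiSeq2000 with a reverse-stranded protocol, per the labels' protocols. The deposited values were whole-number counts per gene; STAR 2.5.0c, featureCounts 1.4.5-p1 and the build mm10 are named in the submitters' processing notes. The annotation release and strand setting of the counting are not given in the sources used here, so reads of genes with overlapping exons cannot be told apart. Of 30590 genes, 17694 passed edgeR's filterByExpr. A model of group means was fitted to 16 course libraries in 8 groups with 8 residual degrees of freedom (edgeR 4.0.16 in R 4.3.3, TMM scaling, robust quasi-likelihood test), and p-values were adjusted by Benjamini-Hochberg over all tested genes with a threshold of 0.05. Replicates are 2 libraries per group; the labels do not say that they came from separate cultures, so the p-values reflect only how far these libraries differ, possibly for technical reasons. CPM are counts per 1000000 of the TMM-scaled library size, and errors of log2 differences are standard errors.

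Genes are named by a rule: Ago2, 10 lineage genes, the 10 largest rises and 10 largest falls among called genes of at least 5 CPM without overlap between days, up to 6 genes per list by p, and the 5 smallest p-values of the difference between KO and WT steps. Predicted and clone-named genes are counted without names. A few further genes picked by it are not reported here. The comparison and the 39 lists were chosen with earlier results of these data known. Alternatives were size factors and the Wald test of DESeq2 1.42.0, other filters, a 2-fold minimum, leaving out single libraries, a replicate block, and fitting only the libraries of a comparison. On simulated counts of this comparison over 17289 genes, 65 of 100 genes changed 2-fold and 95 of 100 changed 4-fold were recovered, with 14 false calls. The changed genes all averaged above 5 CPM, and each gene was drawn independently. No shift shared across genes, such as that between the day 3 libraries, was put in. These rates therefore do not cover genes of lower level or the effect of such a shift. Intervals of counts (95%) cover counting error only. Exon overlaps and UTRs came from GENCODE M21, in which 553 of the genes had no match, and microRNA and promoter sequences from RefSeq tables.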

Additional observations from a re-analysis of the deposited data

Results flagged for a closer look

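Within KO cells, 812 genes (4.59% of those tested) differed between the step from day 2 to 3 and the step from day 1 to 2, 231 with the higher and 581 with the lower later step, and 1 gene (0.00565%) differed between the steps from day 3 to 4 and from day 2 to 3. Neighbouring steps share the libraries of the day between them, so an error in those libraries moves both steps in opposite directions; the first count was 0 without day 2 replicate 2 (edgeR).

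The 1 gene was Dcn, whose later step was lower by a log2 difference of -5.60 (adjusted p = 0.0241). Its call was lost without day 3 replicate 2 (0.118), without day 4 replicate 1 (0.140), without day 4 replicate 2 (0.0677), with the stricter filter (0.0596) and in the fit of these libraries alone (0.223). Among the named genes whose day 2 to 3 step lay below the step before were the signalling genes Msx1 (-3.99), Fgf10 (-3.23), Fgf15 (-2.93), Ptch1 (-2.91), Lefty1 (-2.88), Fzd10 (-2.68) and Gli1 (-2.57), each given as the difference of the 2 log2 steps. The others were Unc5a (-4.40), Sox1 (-3.04), Egln3 (-3.01), Alox15 (-2.79), Ccnd2 (-2.44), Dab2 (-2.21), Il33 (-1.88), Meis1 (-1.69) and the collagen chaperone gene Serpinh1 (-1.11). The step was above the one before for Runx1 (3.22), Loxl1 (2.34), the claudin gene Cldn4 (1.93) and Cdh1 (1.58).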

How the results depend on the processing

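Numbers of called genes moved by over 1.5 times under these alternatives. The 2-fold minimum removes calls by its rule, and for the others the cause was not tested. The filters and smaller fits change the genes or samples used, and each fit estimates the spread anew. For Gli1 from KO day 3 to 4, the log2 difference was -2.64 in the main fit and -2.67 without a filter. Its adjusted p (edgeR) was 0.0127 and 3.3e-21, so counts without a filter are not a like-for-like alternative. Without an expression filter the KO step had 2651 calls, the difference between the KO and WT steps 242, KO day 3 to 4 1733, and the differences of neighbouring KO steps 1914 (the earlier pair) and 297 (the later pair). With the DESeq2 Wald test these last 4 had 31, 849, 1494 and 21. With the stricter filter KO day 3 to 4 had 29 and the later pair 0, and with a 2-fold minimum the WT step had 1463 and KO day 1 to 2 4035. Fitted on the compared libraries alone, the KO step had 696 calls, the WT step 619, KO day 3 to 4 0, the earlier pair 386 and the later pair 0. Leaving out 1 library at a time gave 144 to 1910 calls for the KO step, 333 to 3144 for the WT step, 0 to 531 for their difference, 3802 to 7351 for KO day 1 to 2, 1 to 1333 for KO day 3 to 4, 0 to 1529 for the earlier pair and 0 to 3 for the later pair. Over the same repeats the log2 difference of the KO step ran from -0.028 to 0.69 for Gata4, -1.66 to 0.45 for Sox2, -1.77 to 0.12 for Esrrb and -0.26 to 0.026 for Pth1r, with the sign of the fit on all libraries reversed without KO day 3 replicate 2; none of the 4 was called there. Of 125 called genes followed through the alternatives, 125 kept the call with DESeq2 and 117 with the replicate block, 22 without day 2 replicate 1 and 59 without day 3 replicate 2, and 0 changed sign.

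The replicate numbers were not taken to pair the samples: with 2 pairs, deviations of same-numbered KO libraries correlated at 0.32 between days 2 and 3, and at -0.18 to -0.11 for the other KO days. With the replicate block the KO step had 1233 calls, the WT step 1707, their difference 0, KO day 1 to 2 6876, KO day 3 to 4 6, the earlier pair 297 and the later pair 1. Day 3 replicate 2 had 10750570 counts against 27147835 in replicate 1, which limits the precision of low genes there.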
